A study of Drosophila melanogaster with 3 samples.

Results

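Among the anti-GFP ChIP-seq peaks of svp in whole white prepupae of *Drosophila melanogaster*, 883 had their summit in an intron close to a promoter. They were chosen by position on the dm6 genome: the summit lay 501 to 2000 bp from the nearest start of transcription (TSS) of any protein-coding gene, inside the body of a protein-coding gene, and in no annotated exon of any gene. These 883 summits, called members here, made up 16.3% of the 5425 summits that the IDR-thresholded list placed on the chromosome arms (exact 95% binomial interval 15.3 to 17.3%). IDR is the irreproducible discovery rate, a measure by which peaks that rank alike in replicates are kept. No measured value entered the choice beyond the presence of a peak in this list, which itself depends on the ranks of peaks in the replicates.

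The animals carried svp with GFP joined to its C-terminal end, both sexes were pooled at the start of metamorphosis, and sonicated chromatin was precipitated with an antibody to GFP in 3 biological replicates of 1 group. Whether the tagged gene adds to the native copies is not stated in the labels. Animals without GFP were not analysed here, so binding of svp and uptake of accessible chromatin by any antibody cannot be told apart. Chromatin came from the whole animal, so a site held in few cells and a site held weakly in many cells cannot be told apart either. Sequencing depth is unknown, each replicate list holds exactly 30000 peaks, and the signal value is the authors' own score per peak, which is compared by rank within 1 list only. Intervals of shares cover counting error over peaks, and peaks are not replicates.

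Svp (seven-up) is the fly member of the COUP-TF family of nuclear receptors, which bind DNA through zinc fingers at copies of the half-site AGGTCA, best known as direct repeats with a short spacer, and which often act as repressors. In flies svp is known for photoreceptor fate, for the timing of neuroblast divisions, and for roles in the fat body and heart. Introns near a promoter, the first intron above all, commonly hold enhancers and the start sites of alternative transcripts.

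The 4 highest members are shown first because their 101 bases around the summit are rich in A and T and hold neither AGGTCA nor GATAAG, on either strand. Sequences are from the RefSeq copy of genome release 6 (dm6), plus strand, 5′ to 3′, with the summit at the middle base, and each is named by its host gene.
ush, chr2L:481020-481120: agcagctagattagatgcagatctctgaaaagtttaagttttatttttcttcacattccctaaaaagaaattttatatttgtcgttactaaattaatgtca
CG11050, chr2L:6612662-6612762: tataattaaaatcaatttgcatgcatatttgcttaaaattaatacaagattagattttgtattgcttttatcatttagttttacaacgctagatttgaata
Lk6, chr3R:11761001-11761101: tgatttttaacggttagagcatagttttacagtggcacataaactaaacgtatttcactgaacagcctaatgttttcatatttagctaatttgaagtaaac
CG32772, chrX:4910343-4910443: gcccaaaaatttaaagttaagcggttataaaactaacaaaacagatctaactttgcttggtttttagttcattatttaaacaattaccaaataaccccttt

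The next sequences are shown because they carry a motif, which is printed in capitals. In Rala and Mct1 the capitals mark the half-site AGGTCA, and in Zw and Mtp they mark GATAAG, the core recognised by GATA factors. In orion and Dd the capitals mark a direct repeat of AGGTCA with 1 base between the copies and 1 mismatch allowed (read on the minus strand in orion), the arrangement known as DR1, and Dd also holds GATAAG.
Rala, chrX:3718766-3718866: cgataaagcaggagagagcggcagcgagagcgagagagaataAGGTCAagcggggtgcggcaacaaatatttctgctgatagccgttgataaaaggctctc
Mct1, chrX:2196475-2196575: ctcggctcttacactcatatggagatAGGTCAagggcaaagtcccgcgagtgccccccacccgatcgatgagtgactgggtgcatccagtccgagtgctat
Zw, chrX:19668540-19668640: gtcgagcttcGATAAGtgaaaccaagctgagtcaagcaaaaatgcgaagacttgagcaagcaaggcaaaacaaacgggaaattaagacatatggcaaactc
Mtp, chr2L:20922226-20922326: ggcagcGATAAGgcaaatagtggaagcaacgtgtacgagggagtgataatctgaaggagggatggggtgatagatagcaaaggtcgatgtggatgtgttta
orion, chrX:7945291-7945391: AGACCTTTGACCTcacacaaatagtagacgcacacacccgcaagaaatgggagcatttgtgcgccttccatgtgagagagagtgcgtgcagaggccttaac
Dd, chrX:21322435-21322535: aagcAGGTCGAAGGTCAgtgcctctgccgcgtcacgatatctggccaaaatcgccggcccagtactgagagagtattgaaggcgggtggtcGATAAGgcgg

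Of these, ush, CG11050, Lk6 and CG32772 had GC contents of 26.7, 20.8, 30.7 and 27.7% over the bases shown. Rala and Mct1 had 51.5 and 57.4%, Zw and Mtp 42.6 and 47.5%, and orion and Dd 51.5 and 58.4%. The 2 DR1 members were low in the list, with signal values of 201 for orion and 121 for Dd, against a lowest value of 120 for any member. The orion member ranked 5016, 2248 and 4033 in replicates 1, 2 and 3, and the Dd member was in no peak of replicate 1 and ranked 6305 and 6563 in the others. A motif match is a description of the letters and not a binding site.

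Members were denser along the genome than summits of any other intronic or intergenic class. Intronic bases that meet the position rule make up 7.22% of the arms, 9937042 bases of 137547960, and they held 88.9 summits per Mb, against 39.4 per Mb over the arms. Promoters, taken as bases within 500 bp of a protein-coding TSS, held 116 per Mb. Intergenic bases at the same 501 to 2000 bp distance held 44.7 per Mb, and introns farther away held 36.9 per Mb. The share of summits that were members was 15.3, 15.9 and 16.7% in the top 5000 peaks of replicates 1, 2 and 3 (mean 16.0% ± 0.685, SD, n = 3). In the replicates' top peaks the density of members was 77.0, 79.7 and 83.5 per Mb, and it was above that of proximal intergenic bases by 34.9, 42.8 and 42.4 per Mb and of distal introns by a mean of 47.2 ± 5.63 per Mb, with the same sign in all 3 (exact sign-flip permutation test, p = 0.25 for each, the smallest 3 replicates allow). Promoters were denser than members in all 3 (members minus promoters -31.7 ± 11.5 per Mb, exact p = 0.25).

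Density was lower farther from the TSS. From near to far in 6 bins of 250 bp it was 115, 99.3, 88.1, 74.8, 75.9 and 68.0 members per Mb. In the replicate lists it was 107 ± 11.0 per Mb in the nearest bin and 66.8 ± 4.81 in the farthest (mean ± SD, n = 3). In each of the 6 bins all 3 replicates had more intronic than intergenic summits per Mb, and the intergenic densities, 53.8, 34.9, 36.6, 59.5, 45.2 and 36.8 from near to far, followed no order. The median distance of a member was 1038 bp (quartiles 740 and 1456.5 bp). Signal did not follow distance, with a Spearman rho of -0.03 over the 883 members, given as a description. At the edges of the rule, the 96 intronic summits at 401 to 500 bp had a median signal of 220 and the 89 members at 501 to 600 bp one of 264, while the 41 members at 1901 to 2000 bp had 233 and the 35 intronic summits at 2001 to 2100 bp had 228.

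**Figure D1:**
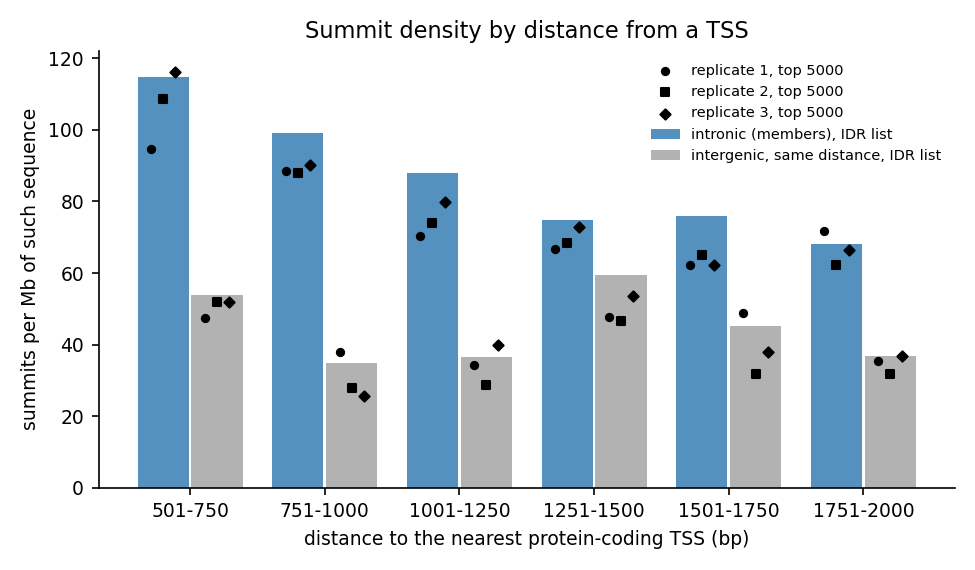
Summits per Mb of intronic sequence (blue bars, members) and intergenic sequence (grey bars) in 250-bp bins of distance to the nearest protein-coding TSS, with black symbols for the top 5000 peaks of each replicate. Intronic density goes from 115 to 68.0 per Mb across the bins and lies above the intergenic density in every bin and replicate.

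Members were spread over the large arms in near proportion to their eligible bases. They numbered 145 on 2L, 169 on 2R, 165 on 3L, 216 on 3R and 188 on X, or 82.6, 88.8, 84.5, 96.0 and 95.1 per eligible Mb. No member lay on chromosome 4, with 87739 eligible bases, or on Y, with 10931. A count of 0 allows up to 34.2 members per eligible Mb on chromosome 4 and 274 on Y, counting error only, so the absence on Y says nothing at this number of peaks.

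Support by the replicates was like that of all peaks. A summit counted as supported by a replicate where a peak among the 5000 highest of that replicate covered it. Of the 883 members, 507 were supported by all 3 replicates, 57.4% (54.1 to 60.7%), and the background over all arm summits was 56.7%. A further 241 were supported by 2 replicates, 111 by 1 and 24 by none. Replicates 1, 2 and 3 supported 78.5, 78.8 and 82.1% (mean 79.8% ± 2.00). The share differed from that of promoter summits by a mean of 0.134 percentage points (exact two-sided sign-flip permutation test over 3 replicates, p = 1) and from distal intronic summits by 1.58 points (exact p = 0.75), differences within the spread between replicates.

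In the full replicate lists 778, 873 and 873 members were found in replicates 1, 2 and 3, and 762 in all 3. For ranks, a summit in no peak of a replicate was placed below all 30000, in members and in the other classes alike. On that basis the median ranks of members were 2516, 2776 and 2576. Distal intronic summits ranked lower in every replicate, at 2713, 3373 and 3090, a mean difference of -436 ± 211 ranks for members minus distal intronic. The exact sign-flip permutation test gave p = 0.25, the smallest that 3 replicates allow. Against proximal intergenic summits the members also ranked higher in every replicate, by -231 ± 178 ranks (exact p = 0.25), and against promoter summits the sign varied (mean 119 ± 251, exact p = 0.75). The order of members was shared between replicates, with Spearman rho of their signal values of 0.743 over 768 members for replicates 1 and 2, 0.783 over 772 for 1 and 3, and 0.735 over 863 for 2 and 3, as descriptions. The IDR-thresholded list keeps peaks that rank alike in replicates, so part of this likeness is built in. These values leave out members that were missing from either list.

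In the IDR-thresholded list the median signal of members was 230 (quartiles 162 and 372), beside 240 for promoter, 204 for distal intronic and 209 for proximal intergenic summits. Of the 100 highest arm summits 19 were members, and of the 300 highest 52 were. Summits can lie close together: 168 members had an interval that overlapped another arm peak, and 66, 64 and 64 members shared a peak of replicate 1, 2 or 3 with another member, so neighbouring members are not separate measurements. With other arm summits counted too, 85, 85 and 80 members shared a peak of replicate 1, 2 or 3, and the replicate rank of such a member is that of the shared peak.

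The highest member, and the highest of all arm summits, lay in the first intron of ush, which encodes the zinc-finger cofactor U-shaped that binds GATA factors. Its nearest TSS, 1382 bp away, belongs to cbt (cabut), a zinc-finger transcription factor. It had a signal of 3228 and ranked 1, 2 and 3 in replicates 1, 2 and 3, with replicate signal values of 1146, 1164 and 891. The next 2 members lay in CG11050 (signal 2865, ranks 2, 5 and 5) and in Lk6, a kinase that phosphorylates the translation factor eIF4E (2278, ranks 7, 22 and 14). These members stood near the top in each replicate.

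The other 17 of the 20 highest ran from CG32772 at 1928 down to Rala, a Ras-like GTPase, at 1131. Between them came LPCAT, a lysophospholipid acyltransferase (1848), CG4496 (1704), CG9663 (1684), the transcription factor gene Adf1 (1636) and Zw, the glucose-6-phosphate dehydrogenase of the pentose phosphate pathway (1601). Then followed norpA, the phospholipase C of phototransduction (1585), the overlapping HMG-box genes HmgD and HmgZ (1502), CG3726 (1492) and Trl, which encodes the GAGA factor (1449). The last were COX7AL2 (1295), the myosin-like gene Mhcl (1280), the apical polarity gene crb (1275), for, a cGMP-dependent kinase (1271), chif with Hyls1 (1268) and Eip74EF, an ecdysone-induced ETS factor (1261). All 20 were supported by all 3 replicates, 17 lay in a first intron, 7 had a promoter peak at their nearest TSS, 1 held AGGTCA and 1 held GATAAG.

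**Figure D2:**
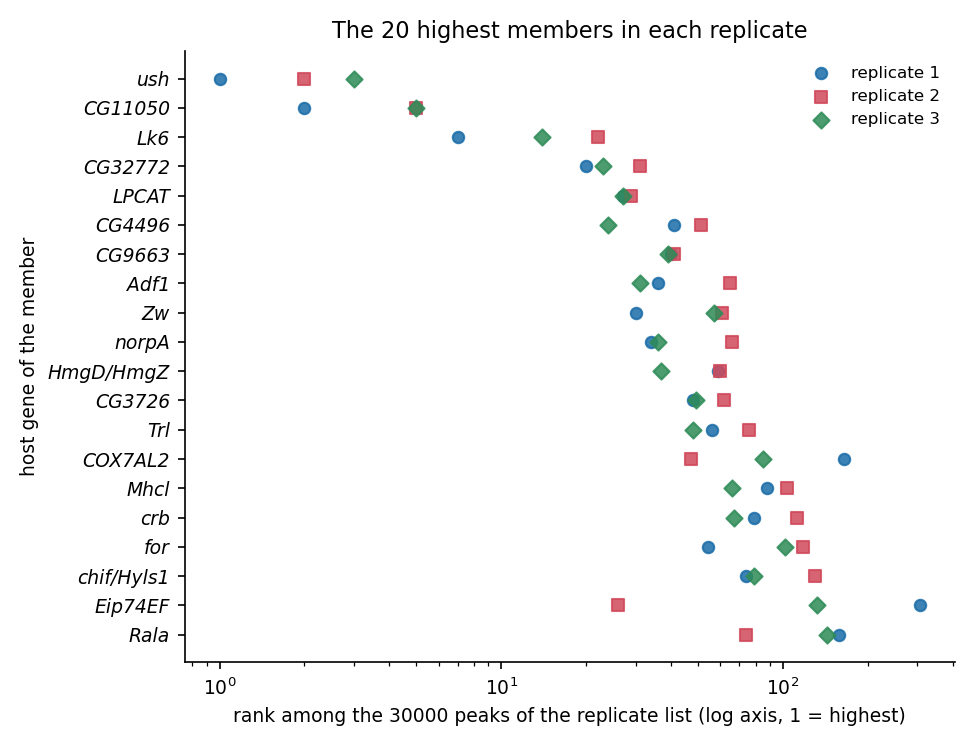
Rank of the 20 highest members (rows, named by host gene) in the list of each replicate on a log axis, where 1 is the highest peak. Every rank is 306 or better, and Eip74EF and COX7AL2 are placed highest by replicate 2 and lowest by replicate 1.

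The replicates placed a few of these members apart. Eip74EF ranked 306, 26 and 132 in replicates 1, 2 and 3, and COX7AL2 165, 47 and 85. Rala ranked 158, 74 and 143. These 3 had GC contents over 50% in the summit window (56.4, 58.4 and 51.5%), and replicate 2 placed each of them higher than the other replicates did.

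That order moved with base composition across all members. GC was measured in the 101 bases around each summit, and the bins were chosen after the ranks of the highest members were seen. A member in no peak of a replicate was again placed below all its peaks. From the lowest to the highest bin this held for 20, 23, 30 and 32 members in replicate 1. In replicate 2 it held for 1, 5, 3 and 1. Replicate 1 ranked a member above replicate 2 in 77.7% of the 247 members with GC below 30%, in 71.8% of the 227 at 30 to below 40%, in 46.3% of the 231 at 40 to below 50% and in 27.5% of the 178 at 50% and above. Support by replicate 1 was 85.0, 80.6, 77.5 and 68.0% over these bins, by replicate 2 it was 78.9, 67.8, 82.3 and 88.2%, and by replicate 3 it was 88.3, 80.2, 79.7 and 79.2%. A like contrast in support was seen in other classes. Between the end bins, support of distal intronic summits went from 82.8 to 75.2% in replicate 1 and from 68.4 to 85.0% in replicate 2. For proximal intergenic summits it went from 88.5 to 67.6% and from 71.8 to 85.3%. Promoter summits changed less in replicates 1 and 2, from 76.4 to 74.7% and from 82.7 to 88.0%. In replicate 3, support of promoter summits went from 89.6 to 70.6%, a larger change than that of members. There, distal intronic summits went from 81.5 to 74.8% and proximal intergenic summits from 85.9 to 61.8%. The part of base composition in these differences between libraries was not tested.

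**Figure D3:**
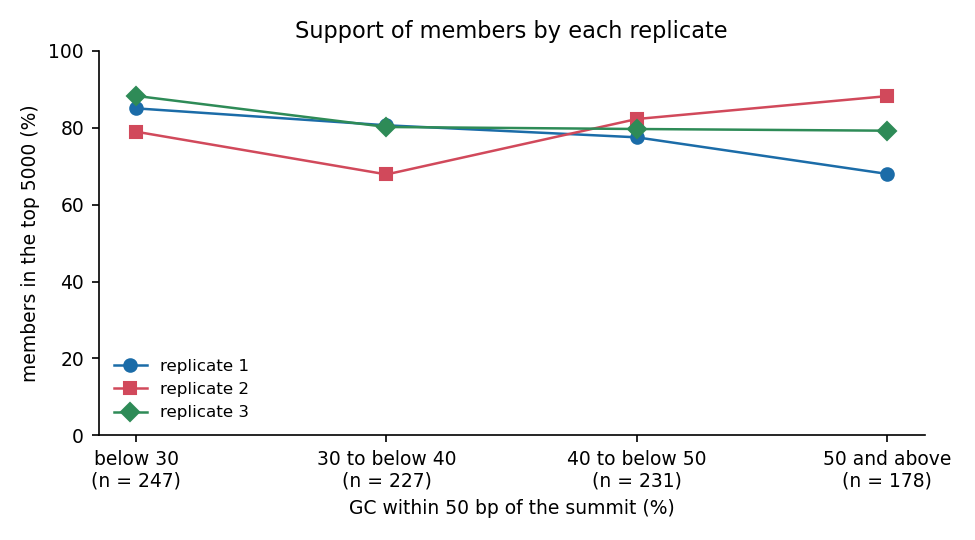
Share of members inside the top 5000 peaks of each replicate (y axis, percent) by GC within 50 bp of the summit (x axis, number of members in brackets). Support by replicate 1 goes from 85.0 to 68.0% with GC, while that by replicate 2 is highest, at 88.2%, in the bin of 50% and above.

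Members had a wider spread of GC than eligible intronic windows at large. Their median was 38.6%, equal to that of 84598 windows of the same length tiled over all eligible bases, but their quartiles were 29.7 and 47.5% against 31.7 and 45.5%. Promoter summits, with quartiles of 30.7 and 49.5%, were about as wide. Windows with GC below 30% were 247 of 883 members and 19.3% of tiled windows, and those at 50% and above were 20.2 and 12.5%. The departure was local: members below 30% had a mean GC of 26.4% at the summit, but 44.0% at 200 bp towards the TSS and 45.6% at 200 bp away from it. Members at 50% and above reached 56.4% at the summit and 43.0 and 43.1% at the same distances. Since bins were set by GC at the summit, a return towards the mean with distance is built into this profile. Of the 100 highest members 42 were below 30% GC, and of the 100 lowest 21 were. Over all members signal hardly followed GC (Spearman rho -0.04 over 883, as a description), with median signals of 248, 198, 228 and 254 from the lowest to the highest bin.

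**Figure D4:**
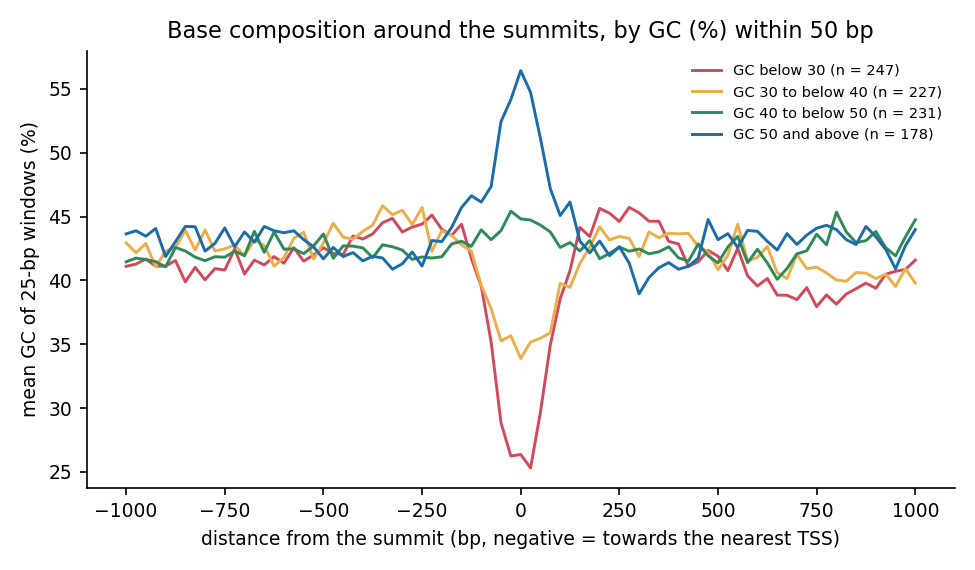
Mean GC of 25-bp windows (y axis) against distance from the summit (x axis, negative towards the nearest TSS) for members in 4 bins of GC at the summit. The lowest bin dips to 26.4% at the summit from 44.0 and 45.6% at 200 bp on either side, and the highest bin peaks at 56.4%.

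The half-site AGGTCA, searched on both strands within 50 bp of the summit, was present in 47 members, 5.32% (3.94 to 7.02%), against a background of 5.35% over all arm summits. It was in 2.62% of the tiled intronic windows and in a mean of 3.17% of windows centred 500 bp to either side of the summit. In the replicates' own top peaks that meet the rule the share was 4.44, 6.31 and 4.94% (mean 5.23% ± 0.968). The reversed, not complemented, half-site was in 2.60% of members and 3.21% of tiled windows. Members thus held the half-site about as often as other summits, and the interval of their share lay above the share in tiled windows.

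Full receptor repeats were rare. With 1 mismatch allowed, DR1 was found in 2 members, the direct repeat with 2 bases between in 0 (which allows a share of up to 0.340%, taking 3 counts of 883 as the limit for a count of 0), and the inverted repeat with 1 base between, known from the ecdysone receptor, in 1, which lay in Hdc, the histidine decarboxylase gene (signal 134). The extended half-site, which is AGGTCA with 3 set bases before it, known from Ftz-f1 type receptors, was in 1 member, in shn (signal 202). DR1 was in 0.0437% of tiled windows. None of these 4 members was supported by all 3 replicates.

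GATAAG was in 120 members, 13.6% (11.4 to 16.0%), against a background of 11.2% over all arm summits. It was in 5.83% of tiled windows and in a mean of 6.06% of the windows 500 bp away. The replicates gave 14.1, 15.2 and 11.8% (mean 13.7% ± 1.71), and its reversed letters were in 4.19% of members and 3.49% of tiled windows. Of 2080 6-mers compared, each with its reverse complement, GATAAG and TGATAA, which overlap, were among the 4 with the largest excess at the summit over the flanks, beside ATTTTA and a second AT-only 6-mer. Of these, TGATAA was in 17.3% of members, 7.93% of flanking windows and 8.46% of tiled windows. For ATTTTA the shares were 22.5, 12.4 and 18.5%, so its excess over tiled windows was smaller than that over the flanks.

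Both motifs had higher shares in members with higher GC, in each replicate. GATAAG was in 33 of 474 members with GC below 40%, 6.96% (4.84 to 9.64%), and in 87 of 409 at 40% and above, 21.3% (17.4 to 25.6%). Over the replicates the difference was 14.0 percentage points ± 1.32 with the same sign in all 3 (exact sign-flip permutation test, p = 0.25, the smallest 3 replicates allow). The replicate lists share many sites, and motif and GC are read from the genome, so the 3 values of either motif are not independent. Tiled windows had GATAAG in 6.24% below and 5.32% above. The half-site was in 10 of 474 and 37 of 409 members, 2.11 and 9.05%, a difference over replicates of 6.56 ± 0.608 points (exact p = 0.25), with 2.25 and 3.07% in tiled windows. Other classes had a like pattern over the 4 GC bins. Members had GATAAG in 4.86, 9.25, 21.6 and 20.8%, distal intronic summits in 4.14, 8.46, 18.9 and 19.0%, proximal intergenic summits in 3.85, 7.59, 13.7 and 29.4%, and promoter summits in 5.06, 9.89, 14.4 and 14.0%. Differences between these classes were not tested.

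**Figure D5:**
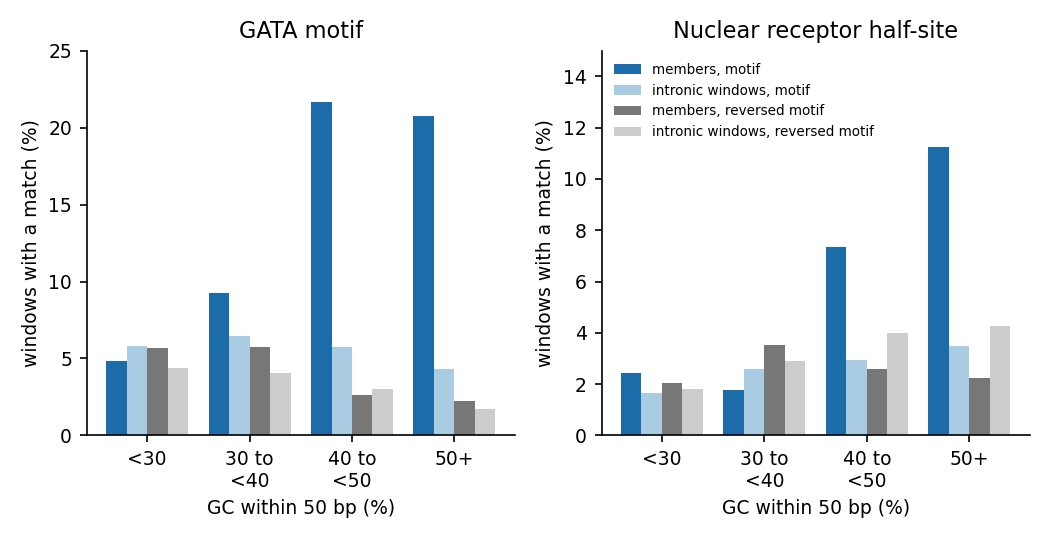
Share of 101-bp windows holding the GATA motif (left) or the nuclear receptor half-site (right) by GC of the window, for members (dark blue), tiled intronic windows (light blue) and the reversed motifs (greys). The GATA motif goes from 4.86 to 20.8% of members between the lowest and highest bin, while intronic windows go from 5.83 to 4.29%.

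For the other motifs named here, no interval of the members' share lay above the share in the flanks. All were searched as exact letters on both strands. The TEAD motif GGAATG of the Hippo pathway was in 35 members (3.96%, flanks 4.47%, tiled windows 4.77%). The AP-1 motif TGANTCA was in 28 (3.17%, flanks 2.60%, windows 2.96%) and the forkhead motif TGTTTAC also in 28 (3.17%, flanks 2.89%, windows 2.74%). The repeat GAGAGAG known from the GAGA factor was in 21 (2.38%, interval 1.48 to 3.61%, flanks 3.91%, windows 1.77%). A run of 4 copies of CA was in 19 (2.15%, 1.30 to 3.34%, flanks 4.02%, windows 2.74%). For both repeats the flank mean lay above the interval, but the share in the flank away from the TSS lay inside it. That flank held GAGAGAG in 3.28% and the CA run in 2.83%, against 4.53 and 5.21% in the flank towards the TSS. The flank towards the TSS can lie in a promoter. An E-box was in 6 members (0.680%, flanks 1.36%), and the Su(H) motif GTGGGAA of the Notch pathway was in 10 (1.13%, flanks 1.70%, windows 1.38%). The Zelda motif CAGGTAG (flanks 0.510%) and the M1BP and C/EBP motifs matched no member, which allows a share of up to 0.340% (3 counts of 883).

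Most members lay in a first intron. The first intron of a protein-coding transcript held 711 members, 80.5% (77.8 to 83.1%), and 66.4% of the eligible bases. The replicates gave 80.3, 79.9 and 81.7% (mean 80.6% ± 0.936). The share of members was above that of intronic bases in each of the 6 distance bins: it was 85.5% of members against 73.2% of intronic bases at 501 to 750 bp, 75.3 against 66.4% at 1001 to 1250 bp and 69.6 against 60.0% at 1751 to 2000 bp. Of the 100 highest members 89 lay in a first intron, and of the 100 lowest 77.

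Most members, 590 or 66.8%, lay downstream of a TSS of their own host gene, where 60.9% of eligible windows lay. A further 218, 24.7%, lay upstream of an internal TSS of the host (20.6% of windows). The remaining 75, 8.49%, were nearest to the TSS of another gene, where 18.5% of windows lay, and the ush member is one of them. The introns that held members had a median length of 4041 bp, beside 4658 bp for eligible windows, and members lay a median of 642 bp from the nearer end of the intron (windows 736 bp).

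The nearest TSS had another summit within 500 bp for 282 members, 31.9% (28.9 to 35.1%). The background was 18.2% over the 3651 arm summits lying more than 500 bp from a TSS, and it was 25.2% for proximal intergenic and 13.4% for distal intronic summits. Summits far from any TSS could not score, so the shares of 18.2 and 13.4% can be too low. A summit lay within 500 bp of 11.7% of all 19275 protein-coding TSSs. The member was the higher of the pair in 150 of 282, 53.2% (47.2 to 59.1%), and the signals of member and promoter peak were hardly related, with Spearman rho 0.0781 over 282 pairs, as a description. Members with a promoter peak had a median signal of 236 and those without 226, and 59.2 and 56.6% were supported by all 3 replicates. Any other summit lay within 1000 bp of 295 members, 33.4%, beside 29.2% of all arm summits and 36.8% of proximal intergenic ones.

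The members lay in 693 of the 13968 protein-coding genes of the arms, a background of 4.96% against which the gene lists below are read, and in 7.64% of the 9072 genes with at least 1 eligible base. A single member was held by 516 host genes, 2 by 121, 3 by 41 and 4 or more by 15. The host with the most was shn (schnurri), a zinc-finger factor of Dpp signalling, with 7 members in 13132 eligible bases, the highest at 365 and 5 supported by all 3 replicates. Svil, the supervillin gene of the actin cytoskeleton, held 5 (highest 849, all 5 supported by all 3) and Tlk, a Tousled-like kinase, held 5 (highest 333, 3 supported by all 3). In Svil a pair of members 203 bp apart fell in the same peak of each replicate.

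Trl held 4 members in 3557 eligible bases, with signals of 1449, 724, 562 and 543, all supported by all 3 replicates. The members at 724 and 543 are 206 bp apart in 1 interval and share a peak of replicates 2 and 3. Diap1, the caspase inhibitor, held 4 (highest 517), as did brat, a translational repressor (640), RhoGAP18B (995), CG1677 (706), rdx, an adaptor of a ubiquitin ligase (648), and Acsl, an acyl-CoA synthetase (474). Of the 4 in each, 4 were supported by all 3 replicates in brat and 2 in each of the others. The CG1677 member at 706 also lies in Dok, which owns its nearest TSS. A further 5 hosts also held 4 members each and had lower summed signals (CG43658, ckn, Syp, sbb and daw), daw in 2860 eligible bases.

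Svp's own gene held 2 members. The stronger lay at chr3R:12279042-12279526, 1801 bp from a TSS of svp and upstream of it, with a signal of 1006, ranks of 309, 107 and 153 and GC of 60.4%. The other lay 566 bp from a TSS shared by svp and CG44037, with a signal of 489 and GC of 28.7%, and was in no peak of replicate 1. The peaks that cover it in replicates 2 and 3 ranked 45 and 213, and they also cover a promoter summit of the same interval, 210 bp away and with a signal of 1169, so these ranks are not the member's alone.

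Of 24 genes of the ecdysone response 10 hosted a member, against the background of 4.96% of all genes. This and the counts that follow carry no test. The lists were chosen with earlier results of these data known, so a share or density above the background is a description only. Genes differ in how many eligible bases they have, so densities are given too: the list held 159 members per eligible Mb against 88.9 over all genes. Eip74EF was highest (1261), followed by ImpL2, a secreted insulin antagonist (725, ranks 238, 452 and 408), tai, a coactivator of the ecdysone receptor (541, ranks 662, 834 and 544), and Eip75B, a haem-binding nuclear receptor (516, ranks 1167, 671 and 660). EcR, Hr4, br, Blimp-1, Eip63E and Eip63F-1 were the other hosts. Of the 16 members in the list 8 were supported by all 3 replicates. The median signal of these 16 was 176, beside 230 over all members. Among nuclear receptors 4 of 21 were hosts (EcR, Eip75B, Hr4 and svp), with 139 members per Mb.

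Fat body and lipid genes were hosts in 10 of 25 cases, with 404 members per eligible Mb over 29739 bases. Mtp, which loads lipid onto lipophorin particles, had the highest (1013, ranks 235, 109 and 170). SREBP, the regulator of fatty acid synthesis (362), mdy, a diacylglycerol acyltransferase (349), and bmm, the triglyceride lipase Brummer (314), followed, each supported by all 3 replicates. AkhR, Desat1, FASN1, Lip4, Lsd-1 and Lsd-2 hosted the rest. The list had 12 members, 7 of them supported by all 3 replicates. Of 18 genes of glycolysis and trehalose 3 were hosts, with Tps1, the trehalose synthase, highest (457), then Tret1-1 (293) and Pgi (274).

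Insulin and TOR signalling had 7 hosts of 22 genes (157 members per Mb), among them the kinase Akt (417, ranks 1754, 979 and 745) and the receptor InR (316, ranks 1400, 1752 and 1756). Pi3K21B, an adaptor of PI3 kinase, was lower (210) and had 2 replicates in support. The lists of Dpp, Wnt and Hedgehog signalling had 7 hosts of 23 (224 per Mb), with the Wnt receptor fz2 at 426 and the Dpp receptor tkv at 345 beside shn. Hippo and Fat-Dachsous genes had 4 of 17 (203 per Mb): crb at 1275, mats at 410, dco at 366 and Tgi at 330.

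EGFR, Ras and Raf signalling had 5 hosts of 20 (163 per Mb), led by the repressor aop at 298. Notch signalling had 4 of 20 (117 per Mb), led by neur, the ubiquitin ligase of Delta (830, ranks 175, 302 and 299), while kuz (218), numb (189) and mam (166) were not supported by all 3 replicates. The list of JNK and stress genes had 2 of 18 (58.2 per Mb), Lk6 and the Fos gene kay (238). Growth and cell cycle genes had 3 of 17 (205 per Mb), with the Myc antagonist Mnt at 504, dap at 271 and stg at 166.

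Chromatin regulators had 5 hosts of 21 but 435 members per eligible Mb, from 10 members, 4 of them in Trl. Trl and brm, the ATPase of the Brahma complex (670), gave the highest, and osa, ph-p and Sin3A were the other hosts. The brm member also lies in CG17028, and its nearest TSS, 652 bp away, belongs to CG17027. Cell death and autophagy genes had 3 of 21 (339 per Mb, from 6 members, 4 of them in Diap1): Atg17 (897, ranks 293, 115 and 400), Diap1 and Atg1 (269). The Atg1 member also lies in CG42709, which owns its nearest TSS. GATA factors and their cofactor had 2 of 6, with srp, the GATA factor of blood and fat body, at 191 and ush at 3228. A second ush member, near a TSS of ush itself, had 393.

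Disc patterning and Hox genes had the lowest density of the 21 lists, 2 hosts of 26 and 28.6 members per Mb over 69907 eligible bases: ap (714) and Ubx (232). Basement membrane genes had 2 of 17 (54.5 per Mb), trol (178) and rhea (183). Temporal factors of neuroblasts had 3 of 19 (84.8 per Mb), namely svp, Syp (427) and br (294). The br member also lies in Mur2B, which owns its nearest TSS.

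The 4 lists of tissue markers each had a host, and by share of genes 2 of them lay close to the background of 4.96%. Neuron and glia markers had 5 of 14 (132 per Mb), with Rbp9 (630), Gs2 (352), elav (236) and moody (200). Muscle markers had 1 of 14 (62.5 per Mb), Mef2 (398). Haemocyte, trachea and heart markers had 2 of 16 (155 per Mb), Pvr (493) and srp. Gut, tubule and salivary gland markers had 1 of 15 (126 per Mb), bowl (247). All but the muscle list lay above the 88.9 per Mb over all genes, the gut list with 2 members. A peak in a marker gene does not say in which cells the chromatin was bound.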

How the data were processed

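ChIP-seq peak lists of 3 biological replicates were used. Per the deposited manifests, each replicate list came from that replicate's alignments and a control file shared by all 3, and the IDR-thresholded list from the replicate and pooled lists. The signal value per peak is as the authors deposited it, with its scaling not stated. For the aligner, peak caller, number of reads and IDR cutoff, nothing is given in the sources used here. Depth is therefore unknown.

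Summits were placed on dm6, counted from 1, with RefSeq sequence of genome release 6 and the Ensembl 115 annotation (FlyBase 6.54). TSSs are those of all transcripts of protein-coding genes. Every base of the arms was given a class by the same rule, and 101-bp windows were tiled over eligible bases (84598, of which 8460 served for positions). Support, motifs (23, exact letters, 1 mismatch in receptor repeats) and 21 gene lists (394 symbols, all matched) were counted. Shares carry exact 95% binomial intervals. Differences between classes were tested over the 3 replicates only, by exact sign-flip permutation.

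Named are the 20 highest members, the 10 hosts with the most members (ties by summed signal), members in svp, up to 4 members per gene list, and members with a receptor repeat. Further hosts of a list, 5 hosts tied at 4 members, CG44037 at svp, and the Hdc and shn repeats are given to complete counts. Some genes that share a named member or own its nearest TSS are given as well. Members and lists were chosen with earlier results of these data known. Scripts were tested on simulated data: 100% of 1000 eligible positions and 100% of 300 placed half-sites were found. Python 3.11.15, numpy 2.4.6, scipy 1.17.1, pandas 2.3.3 and matplotlib 3.10.9 were used.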

Additional observations from a re-analysis of the deposited data

How the results depend on the processing

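Of 54 values under other settings, 26 moved by no more than 1 SD of the replicates. With only the higher 50% of peaks, members were 17.1% of summits, 83.9% had support by all 3 replicates, 19.1% had a promoter peak (all non-promoter summits 11.0%), 81.9% lay in a first intron, and their median signal percentile was 50.8 instead of 53.0. With gene starts in place of all TSSs these shares were 12.8% of summits, 28.4% with a promoter peak and 85.5% in a first intron. Members at 501 to 1000 bp alone were 7.59% of summits, 26.9% of them with a promoter peak and 85.2% in a first intron. Counting summits within 250 bp once, a setting chosen after seeing the data, left 799 members, a percentile of 54.2 and 28.8% with a promoter peak (all 16.8%). Leaving out a replicate kept only the summits supported by both other replicates. Without replicate 1, 2 or 3 these included 609, 593 or 560 of the 883 members, which is 69.0, 67.2 or 63.4% support. Among the kept summits 16.2 to 16.9% were members, with percentiles of 51.3 to 52.1. Of the kept members 23.2 to 24.6% had a promoter peak (all kept non-promoter summits 12.4 to 13.7%). A first intron held 80.9 to 82.1% of them, and 4.72 to 6.24% had a half-site. This setting drops peaks as well as a replicate, so its shifts cannot be assigned to the replicate alone. The IDR-thresholded list still rests on all 3 replicates. Support was 82.2% with the top 10000 peaks, 30.9% with the top 2500 and 42.7% with 50% reciprocal overlap. A promoter peak within 250 bp was found for 19.3% (all 11.5%). The shares with a promoter peak over all non-promoter summits can be too low under every setting, because summits far from any TSS could not score. The half-site was in 2.83% of windows of 25 bp each side and 8.72% of 100 bp each side. No pairing of samples between groups was possible because the labels name 1 group. Classes of peaks were compared within each replicate, as paired values.

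Depth is unknown, so peaks below the lists cannot be called absent. Members near one another share replicate peaks. GC bins were chosen after seeing the data.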
